A study of Mus musculus with 9 samples.

Results

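Genes that mark pericytes, contractile wall cells of vessels and the fibroblasts of the fibrotic scar were followed in the injured mouse spinal cord. They were chosen by name, as Pdgfrb, Rgs5, Acta2, Tagln, Postn, Fn1, Dcn, Lum, Fap and Lox, and are 10 of the 52550 genes in the count table. All 10 symbols were found, and 9 of them had enough counts to be among the 18699 genes tested. The exception was Tagln, with at most 11 counts in any mouse. RNA was sequenced from the spinal cord of 9 adult female C57BL/6N mice, 3 per group, on day 7 after surgery. Sham mice had a laminectomy without injury to the cord. SCI mice received a contusion at the T10 level and intraperitoneal DMSO, the vehicle. SCI+FIPI mice received the same contusion and daily intraperitoneal FIPI, an inhibitor of phospholipase D, in DMSO diluted in saline, from the time of injury until the tissue was taken. Whether the Sham mice were given vehicle is not given in the sources used here. Each library came from a cord segment that held the injury epicenter with all of its cell types. The comparisons ask which of these genes differ after contusion, and whether their levels differ with the inhibitor.

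Pericytes are cells that wrap the capillary wall inside the basement membrane, and with the smooth muscle of larger vessels they are called mural cells. They take up PDGF-B released by endothelial cells through the receptor PDGFRB, a signal that keeps them on the vessel. After contusion of the spinal cord, PDGFRB-positive perivascular cells and fibroblasts multiply in the lesion core and lay down fibronectin and collagen, and the fibrotic scar they build is surrounded by reactive astrocytes.

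RefSeq promoter entries on GRCm38.p6 were found for 3 of the 10 genes, Rgs5, Acta2 and Postn. The 250 bases before the start are shown for Rgs5 and Postn, because these genes had the smallest and the largest rise after contusion among the 9 tested. The Rgs5 stretch is chr1:169655251-169655500 on the forward strand and ends at the annotated start of the gene. The Postn stretch is chr3:54360857-54361106 on the forward strand and ends 2 bases short of the start in GENCODE M21, while a second RefSeq start of Postn lies 1842 bases upstream. Capitals mark the only motif match.
Rgs5: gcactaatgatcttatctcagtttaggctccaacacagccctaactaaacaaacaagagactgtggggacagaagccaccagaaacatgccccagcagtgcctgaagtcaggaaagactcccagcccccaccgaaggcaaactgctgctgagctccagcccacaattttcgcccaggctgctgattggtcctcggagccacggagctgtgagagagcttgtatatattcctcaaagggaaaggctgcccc
Postn: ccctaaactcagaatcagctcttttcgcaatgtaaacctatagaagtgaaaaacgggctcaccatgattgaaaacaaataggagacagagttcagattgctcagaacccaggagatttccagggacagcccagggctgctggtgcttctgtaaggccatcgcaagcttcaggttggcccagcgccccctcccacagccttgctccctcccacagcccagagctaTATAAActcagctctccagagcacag
The capitals are a TATA box written as TATAAA, on the forward strand, 26 to 21 bases before the start of Postn. The motifs, 3 in all, were searched on both strands of the 250 bases before the start, and none overlapped another. These were the CArG box, which binds serum response factor in contractile genes, the MCAT element written as CATTCC, which binds TEAD factors, and the TATA box. The CArG box was searched in its strict form, CC, a run of A or T only, and GG. A box with another base inside that run was not counted. Among 32851 RefSeq promoters, 1.47% held a CArG box, 12.6% an MCAT element and 12.4% a TATA box. The Rgs5 window held none of these letters. The Acta2 window held 1 MCAT element on the reverse strand, 146 to 141 bases before the start used by RefSeq, which lies 217 bases inside the gene as GENCODE M21 draws it. It held no strict CArG box, but it holds ccctatatgg and ccttgtttgg, each with 1 other base in the run.

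Libraries held between 20806000 and 24582377 counts per mouse, and the 10 genes took 0.0459% to 0.083% of them in Sham mice, 0.3% to 0.39% in SCI mice and 0.281% to 0.332% in SCI+FIPI mice. Levels are given as CPM, the count of a gene per 1000000 counts of its library after scaling by the TMM method. A gene was called changed when its log2 fold change was at least 0.5 in size and its Benjamini-Hochberg adjusted p in the edgeR quasi-likelihood test was under 0.05. The labelled tissue was borne out by its markers, with summed levels of 6160 to 6910 CPM for 8 neuron markers and 32400 to 34000 CPM for 6 oligodendrocyte markers in Sham mice. Sham mouse 1 stood apart for fibroblast genes. It had the lowest Sham level in 20 of 21 fibroblast and meningeal markers other than the 10 genes (95.2%), against 31.8% of all genes tested. For the matrix and fibroblast genes among the 10, SCI against Sham is therefore given with and without that mouse. The same holds for the called counts and medians of the fibroblast, matrix, proteoglycan and receptor lists. This setting was chosen after the data were seen. Single genes of those lists, and Fap and Pdgfrb in SCI+FIPI against Sham, are given with all mice only. In such tissue RNA, more cells of a type and more RNA per cell cannot be told apart.

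After contusion, all 9 tested genes rose, and in each of them the lowest SCI mouse was above the highest Sham mouse. Their log2 fold changes against Sham ran from 0.93 for Rgs5 to 4.43 for Postn, with a median of 2.61 beside a median of 0 over all genes tested. Contusion moved many genes, so that 47.0% of all genes tested were called changed, 24.4% higher and 22.5% lower. The 2 groups did not overlap in 70.5%, with every SCI mouse higher in 35.6%. The smallest p that 3 mice against 3 can give in the exact two-sided permutation test is 0.1, and each of the 9 genes reached it. This follows from the lack of overlap, as for any gene whose groups do not overlap, and adds nothing to it. With SCI+FIPI, Rgs5 was the only one of the 9 called changed against SCI, and it was lower.

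Pdgfrb (ENSMUSG00000024620, chromosome 18) encodes the receptor for PDGF-B and PDGF-D. Pdgfrb was at 30.5, 41.3 and 31.0 CPM in the 3 Sham mice, at 128, 158 and 147 CPM in the SCI mice, and at 124, 108 and 101 CPM in the SCI+FIPI mice. The 3 groups did not overlap, with Sham lowest, SCI+FIPI between and SCI highest. Against Sham, Pdgfrb rose 4.2-fold in SCI, a log2 fold change of 2.07 (SE 0.132, adjusted p = 2.67e-07), and without Sham mouse 1 the log2 fold change was 2. SCI+FIPI was lower than SCI by a log2 fold change of -0.37 (95% interval -0.65 to -0.1), which missed both limits (adjusted p = 0.0907).

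Rgs5 (ENSMUSG00000026678, GRCm38 chr1:169655501-169695813, forward strand) encodes a regulator of G protein signalling that is abundant in brain and spinal cord pericytes. It was measured at 150, 167 and 142 CPM in Sham mice, at 267, 307 and 302 CPM in SCI mice, and at 227, 199 and 190 CPM in SCI+FIPI mice. Again no mouse of one group fell within the range of another. The rise in SCI was 1.91-fold, a log2 fold change of 0.93 (SE 0.0829, 95% interval 0.75 to 1.11, adjusted p = 1.54e-07), and this interval lay below those of the other 8 genes. Rgs5 fell by 0.51 on the log2 scale in SCI+FIPI against SCI (SE 0.0822, 95% interval -0.68 to -0.33, adjusted p = 0.00412). It was then 1.34-fold above Sham, with a log2 fold change of 0.43 (SE 0.0826, adjusted p = 0.00044) that was under the fold limit.

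The call of Rgs5 with the inhibitor sat at the edge of the fold limit. It was called in 8 of 14 alternatives, while its adjusted p stayed at or under 0.033 and its log2 fold change between -0.58 and -0.45 in all 14. The call was lost, at -0.47 without SCI mouse 2, -0.48 without SCI mouse 3, -0.48 without SCI+FIPI mouse 2 and -0.45 without SCI+FIPI mouse 3. Among all genes tested, 3.06% were called changed between SCI+FIPI and SCI, 2.36% higher and 0.695% lower. This share is itself unstable, since the 572 calls behind it became 189 without SCI+FIPI mouse 2, 240 without SCI mouse 3, 341 without SCI mouse 2 and 1038 without SCI mouse 1. The groups did not overlap in 30.2% of all genes tested, every SCI+FIPI mouse was below every SCI mouse in 14.5%, and Rgs5 and Pdgfrb were among them.

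**Figure D1:**
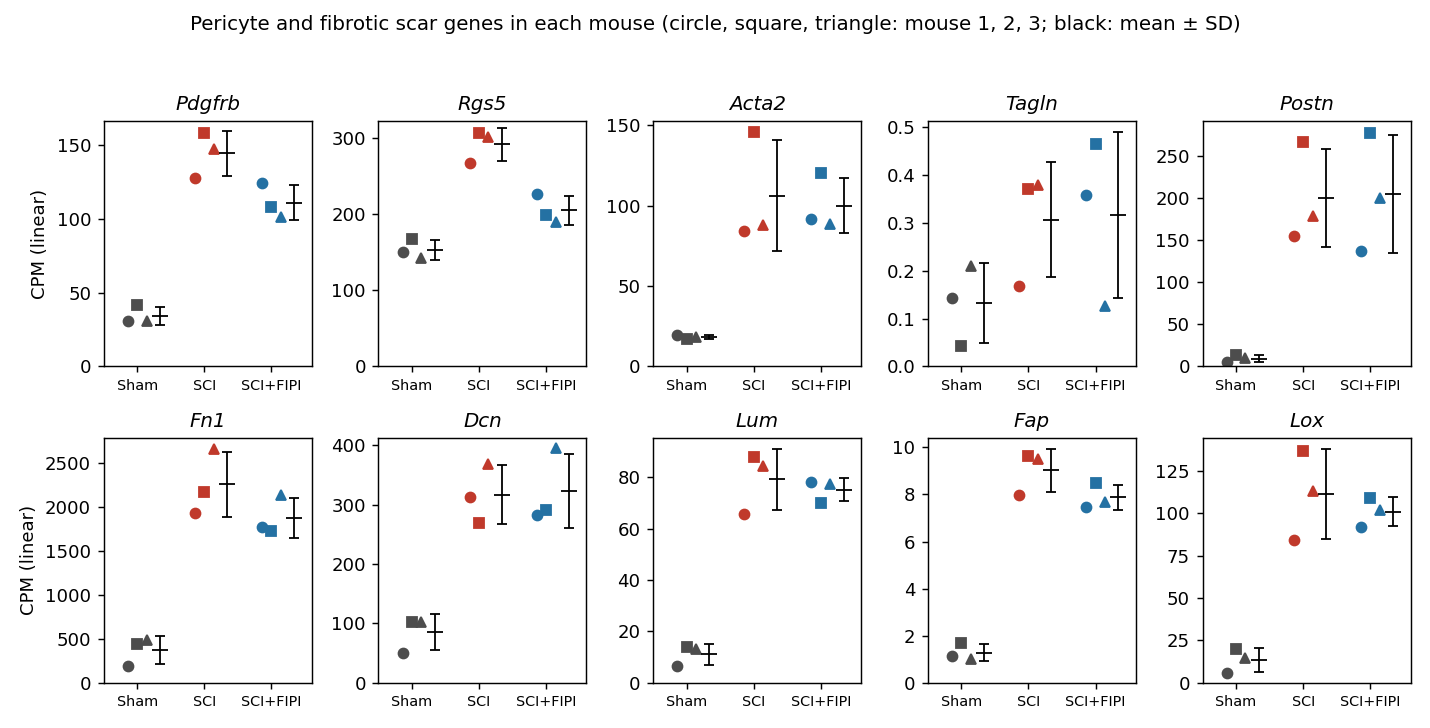
Level of each of the 10 genes in each mouse, in TMM-scaled CPM on linear axes that start at 0, with circles, squares and triangles for mice 1, 2 and 3 of the Sham (grey), SCI (red) and SCI+FIPI (blue) groups and black marks for the mean ± SD (n = 3). Mice that share a number are different animals. In 9 of the 10 panels all SCI mice lie above all Sham mice, Tagln is below 0.5 CPM in every mouse, and only Rgs5 and Pdgfrb have every SCI+FIPI mouse below every SCI mouse.

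Acta2 (ENSMUSG00000035783, GRCm38 chr19:34241090-34255590, reverse strand) encodes smooth muscle actin, the filament protein of vascular smooth muscle and of myofibroblasts. Acta2 stood at 19.6, 16.7 and 18.2 CPM in Sham mice, at 84.5, 146 and 88.0 CPM in SCI mice, and at 91.6, 120 and 88.6 CPM in SCI+FIPI mice. Both injured groups were above all Sham mice and overlapped each other, and SCI mouse 2 was the highest of the 9. The rise in SCI was 5.86-fold, a log2 fold change of 2.55 (SE 0.261, adjusted p = 9.38e-05). The difference between SCI+FIPI and SCI was -0.09 on the log2 scale (95% interval -0.65 to 0.47, adjusted p = 0.866), and it was 0.21 without SCI mouse 2. Of the 50-base stretches in the Acta2 transcript, 0.352% also occur in other actin genes or copies of them.

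Tagln (ENSMUSG00000032085, GRCm38 chr9:45929619-45936058, reverse strand) encodes transgelin, an actin-binding protein of smooth muscle. It had 3, 1 and 5 counts in Sham mice, 4, 9 and 9 in SCI mice, and 8, 11 and 3 in SCI+FIPI mice. Summed over 3 mice this was 9 counts in Sham (exact 95% Poisson interval 4.12 to 17.1), 22 in SCI (13.8 to 33.3) and 22 in SCI+FIPI (13.8 to 33.3), where the intervals cover counting error only. The groups overlapped, and a difference was not detectable with these counts. Of the 1988 exonic bases of Tagln, 1349 overlap exons of Pcsk7 and Gm48529 on the opposite strand, and Pcsk7, a protease of the secretory pathway, had 558 to 672 counts in Sham mice, 798 to 856 in SCI mice and 766 to 781 in SCI+FIPI mice. The libraries marked the second strand, but whether counting used the strand is not given in the sources used here, and without it reads of these genes cannot be told apart from reads of Tagln.

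Fn1 (ENSMUSG00000026193, GRCm38 chr1:71585520-71653200, reverse strand) encodes fibronectin, the glycoprotein on which cells attach and other matrix fibers assemble. Levels of Fn1 were 189, 436 and 483 CPM in Sham mice, 1932, 2169 and 2659 CPM in SCI mice, and 1770, 1723 and 2139 CPM in SCI+FIPI mice. Sham mouse 1 was well below the other 2 Sham mice, and all injured mice were above every Sham mouse. Fn1 rose 6.1-fold in SCI, a log2 fold change of 2.61 (SE 0.365, adjusted p = 0.000644), which was 2.29 without Sham mouse 1. SCI+FIPI and SCI overlapped, with a log2 difference of -0.26 (95% interval -1.09 to 0.56, adjusted p = 0.699). An opposite gene, Apol7d, shares 292 exonic bases with Fn1.

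Postn (ENSMUSG00000027750, GRCm38 chr3:54361109-54391037, forward strand) encodes periostin, a secreted protein that binds integrins and collagen and is made by activated fibroblasts. Its level was 4.89, 13.0 and 9.61 CPM in Sham mice, 155, 266 and 178 CPM in SCI mice, and 137, 277 and 200 CPM in SCI+FIPI mice. The spread among injured mice was wide, and mouse 2 was the highest in both injured groups, although mice that share a number were different animals. Postn had the largest change of the 9 genes, 21.6-fold in SCI (log2 fold change 4.43, SE 0.464, adjusted p = 0.000156) and 22.2-fold in SCI+FIPI (log2 fold change 4.47, SE 0.465, adjusted p = 0.000192) against Sham. Without Sham mouse 1 these log2 values were 4.14 and 4.18. SCI+FIPI differed from SCI by 0.04 on the log2 scale (95% interval -0.87 to 0.94, adjusted p = 0.967), a difference whose sign changed when single mice were left out.

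Dcn (ENSMUSG00000019929, GRCm38 chr10:97479609-97518143, forward strand) and Lum (ENSMUSG00000036446, GRCm38 chr10:97565128-97572703, forward strand) are neighbouring genes for decorin and lumican, small proteoglycans that bind collagen and set the width of its fibrils. Dcn was at 50.2, 103 and 102 CPM in Sham mice, at 312, 269 and 369 CPM in SCI mice, and at 283, 291 and 395 CPM in SCI+FIPI mice. Lum had 6.42, 13.8 and 13.3 CPM in Sham mice, 65.7, 87.8 and 84.3 CPM in SCI mice, and 78.2, 70.1 and 77.5 CPM in SCI+FIPI mice. For both genes Sham mouse 1 was the lowest of the 9, and the injured groups overlapped each other. Dcn rose 3.72-fold in SCI (log2 fold change 1.89, SE 0.309, adjusted p = 0.00145), which was 1.63 on the log2 scale without Sham mouse 1. Lum rose 7.04-fold (log2 fold change 2.82, SE 0.26, adjusted p = 4.51e-05), which was 2.55 without that mouse. The log2 difference between SCI+FIPI and SCI was 0.03 for Dcn (95% interval -0.68 to 0.74, adjusted p = 0.965) and -0.08 for Lum (95% interval -0.61 to 0.46, adjusted p = 0.881).

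Fap (ENSMUSG00000000392, GRCm38 chr2:62500943-62574075, reverse strand) encodes fibroblast activation protein, a membrane protease of activated fibroblasts. Low levels of 1.15, 1.68 and 1.00 CPM were found in Sham mice, against 7.97, 9.63 and 9.49 CPM in SCI mice and 7.46, 8.48 and 7.68 CPM in SCI+FIPI mice. Sham and injured mice were far apart, while SCI+FIPI overlapped with SCI only through SCI mouse 1. Fap rose 7.03-fold in SCI, a log2 fold change of 2.81 (SE 0.185, adjusted p = 6.44e-09), the lowest adjusted p of the 9 genes, and 2.75 without Sham mouse 1. The log2 difference of SCI+FIPI from SCI was -0.2 (95% interval -0.52 to 0.13, adjusted p = 0.456). Stretches of 50 bases that Fap shares with another gene make up 0.568% of its transcript.

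Lox (ENSMUSG00000024529, chromosome 18) encodes lysyl oxidase, the secreted enzyme that starts the crosslinking of collagen and elastin. Lox was measured at 5.84, 19.95 and 14.5 CPM in Sham mice, at 84.0, 137 and 113 CPM in SCI mice, and at 92.1, 109 and 102 CPM in SCI+FIPI mice. Sham mouse 1 was again the lowest, and all SCI+FIPI mice lay within the range of the SCI mice. The rise in SCI was 8.22-fold, a log2 fold change of 3.04 (SE 0.402, adjusted p = 0.000528), and 2.69 without Sham mouse 1. SCI+FIPI differed from SCI by -0.14 on the log2 scale (95% interval -0.99 to 0.7, adjusted p = 0.853).

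The spread between mice of one group differed among the genes. In Sham mice the coefficient of variation of the CPM was 7.92% for Acta2 and 8.32% for Rgs5, but 35.5% for Dcn, 36.9% for Lum, 42.7% for Fn1, 44.3% for Postn and 52.9% for Lox. Pdgfrb at 17.8% and Fap at 28% lay between, and Tagln was at 63.3% on its few counts. Sham mouse 1 was the lowest Sham mouse in 6 of the 9 tested genes. After contusion the order was different, with 32.7% for Acta2, 29.5% for Postn and 24% for Lox as the largest and 7.53% for Rgs5 as the smallest among the tested genes. SCI mouse 1 was the lowest SCI mouse in 8 of the 9, against 34.9% of all genes tested, and Dcn was the exception. With 3 mice per group these spreads are themselves rough.

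Levels of different genes can be set side by side only per length, here as CPM per kilobase of exon. On that scale Rgs5 was the most abundant of the 10 genes in Sham mice with 33.6 ± 2.8 (SD, n = 3), followed by Fn1 with 31.6 ± 13.5, Dcn with 14.6 ± 5.18 and Acta2 with 8.27 ± 0.655. The range of Fn1 over the mice overlapped those of Rgs5 and Dcn. Overlap here compares ranges only and leaves aside that all genes were read in the same mice. Within each Sham mouse Fn1 was above Dcn, at 16.2 against 8.59, 37.3 against 17.7 and 41.3 against 17.4. Against Rgs5 it was lower in Sham mouse 1 and higher in the others. Within every SCI mouse Rgs5 was above Dcn, and Lum above Pdgfrb, although these ranges overlapped. Pdgfrb at 6.25 ± 1.11, Lum at 4.57 ± 1.69, Lox at 2.81 ± 1.49 and Postn at 1.05 ± 0.466 came next, each overlapping its neighbour. Fap at 0.226 ± 0.0634 and Tagln at 0.0664 ± 0.042 were the lowest and were separate from the genes above them. The place of Tagln is uncertain in all 3 groups, since its level was divided by all 1988 exonic bases although reads over the 1349 that overlap other genes may not have been counted. In SCI mice Fn1 led alone with 193 ± 31.7 CPM per kilobase. Rgs5 with 64.2 ± 4.84, Dcn with 54.2 ± 8.55 and Acta2 with 48.4 ± 15.8 formed a run of overlapping neighbours. Lum with 32.4 ± 4.85, Pdgfrb with 26.3 ± 2.72, Lox with 23.3 ± 5.6 and Postn with 22.9 ± 6.76 formed another. Fap at 1.6 ± 0.163 and Tagln at 0.154 ± 0.0605 were again the lowest, each separate from its neighbours. SCI+FIPI mice had the same leading gene, Fn1 with 161 ± 19.5. Rgs5, with 45.2 ± 4.28, was then below the means of Dcn, with 55.4 ± 10.7, and of Acta2, with 45.6 ± 7.87, but overlapped with Acta2, its neighbour in the order. Lum with 30.7 ± 1.84, Postn with 23.5 ± 8.05, Lox with 21.1 ± 1.75 and Pdgfrb with 20.3 ± 2.17 followed as overlapping neighbours, and Fap with 1.39 ± 0.0943 and Tagln with 0.159 ± 0.0875 came last.

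Beside Rgs5 and Pdgfrb, 17 other mural genes were read, and they did not move as one. In SCI against Sham, 8 of the 17 were called higher, 2 were called lower and 7 were not called, with a median log2 fold change of 0.46. Of all genes tested, 24.4% were called higher and 22.5% lower. The 2 largest were Anpep, the membrane aminopeptidase CD13 of pericytes and also of myeloid cells, from 8.23 ± 3.59 to 171 ± 12.7 CPM (log2 fold change 4.36, SE 0.277, adjusted p = 5.78e-06), and Foxs1, a transcription factor, from 0.793 ± 0.289 to 4.75 ± 1.06 CPM (2.57, SE 0.263, adjusted p = 6.13e-07). Some genes used to mark pericytes of the healthy cord, picked here after their values were seen, did not pass the test and overlapped with Sham. Kcnj8, a potassium channel subunit, had a log2 fold change of -0.04 (SE 0.145, adjusted p = 0.82), Abcc9, its partner in the channel, of -0.11 (SE 0.0959, adjusted p = 0.307), and Atp13a5 of -0.18 (SE 0.123, adjusted p = 0.205). Others of the list rose, also named after their values were seen, among them Ndufa4l2 at 1.8 (adjusted p = 8.2e-08), Cspg4, the proteoglycan NG2, at 1.41 (adjusted p = 3.87e-09), Notch3, a receptor of mural cells, at 0.68 (adjusted p = 1.7e-05) and Vtn, vitronectin, at 0.62 (adjusted p = 0.0372). The 2 genes called lower were Ebf1 at -1.18 and Gucy1b1 at -0.96, also named after their values were seen. None of the 17 was called with SCI+FIPI against SCI, 11 were lower and 6 higher, and the median was -0.09. In 6 of the 17 every SCI+FIPI mouse was below every SCI mouse, beside 14.5% of all genes tested. In 1 of the 17 every SCI+FIPI mouse was above every SCI mouse, beside 15.7% of all genes tested. At an adjusted p under 0.05 without the fold limit, Cspg4 was lower at -0.31 (adjusted p = 0.0301) and Ebf1 higher at 0.38 (adjusted p = 0.00697), both named after their values were seen.

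Among 16 tested smooth muscle contractile genes other than Acta2 and Tagln, 11 were called higher in SCI against Sham, none was called lower, and the median log2 fold change was 1.18. Actg2, the enteric smooth muscle actin, rose from 0.405 ± 0.364 to 8.68 ± 2.74 CPM (log2 fold change 4.38, SE 0.537, adjusted p = 0.000122), and Cnn1, calponin, from 1.57 ± 1.18 to 7.29 ± 2.38 CPM (2.24, SE 0.447, adjusted p = 0.00203). Myh11, the smooth muscle myosin and a gene named after its value was seen, was at 16.5 ± 2.14 CPM in Sham and 16.4 ± 2.69 CPM in SCI, with a log2 fold change of -0.01 (SE 0.151, adjusted p = 0.954). The groups overlapped for Myh11, while every SCI mouse was above every Sham mouse for Acta2. Between SCI+FIPI and SCI none of the 16 was called, 11 were lower and 5 higher, and the median was -0.1. In 3 of the 16 every SCI+FIPI mouse was below every SCI mouse, beside 14.5% of all genes tested. These were Mylk at -0.5 (adjusted p = 0.0104), Mrtfa at -0.31 (adjusted p = 0.0114) and Actn1 at -0.27 (adjusted p = 0.0366). All are named after their values were seen, and Mylk fell just short of the fold limit before rounding.

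Of 21 fibroblast and meningeal markers other than the 10 genes, 17 were called higher in SCI against Sham and none lower, and their median was 1.98 on the log2 scale (15 called and a median of 1.8 without Sham mouse 1). Col1a1, a chain of collagen I, rose from 181 ± 80.5 to 4810 ± 889 CPM (log2 fold change 4.73, SE 0.43, adjusted p = 6.29e-05), and Col3a1, the chain of collagen III, from 171 ± 112 to 2460 ± 337 CPM (3.84, SE 0.646, adjusted p = 0.00183). The 4 markers that were not called were Ogn at 0.27, Dpt at 0.45, Clec3b at 0.05 and Igfbp6 at 1.33, named after their values were seen because they were the remainder. None of the 21 was called between SCI+FIPI and SCI, and the median was -0.08. SCI+FIPI mouse 1 had the lowest SCI+FIPI level in 16 of the 21 (76.2%), against 33.5% of all genes tested. The count and median of this list were not computed without that mouse.

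The 32 matrix assembly, crosslinking and matricellular genes other than Fn1, Postn and Lox were nearly all higher after contusion, with 31 called higher, none lower and a median of 2.35 on the log2 scale (29 and 2.24 without Sham mouse 1). Spp1, osteopontin, which macrophages also make, rose from 127 ± 19.4 to 5010 ± 559 CPM (log2 fold change 5.3, SE 0.319, adjusted p = 3.61e-06), and Ltbp2, a protein of elastic microfibrils, from 1.5 ± 1.12 to 26.2 ± 8.25 CPM (4.09, SE 0.578, adjusted p = 0.000672). Loxl4, a paralog of Lox, was the one not called, at 0.63 (adjusted p = 0.0753), and is named for that reason after its value was seen. In SCI+FIPI against SCI, 30 of the 32 were lower and 2 higher, with a median of -0.23, and 10 of the 32 had every SCI+FIPI mouse below every SCI mouse, beside 14.5% of all genes tested. Only Fbn2, fibrillin-2, was called, and it fell from 37.2 ± 7.05 to 24.1 ± 3.07 CPM (log2 fold change -0.63, SE 0.133, adjusted p = 0.0144). SCI mouse 1 had the lowest SCI level in 29 of the 32, and without it 30 were again lower in SCI+FIPI, 2 were called and the median was -0.3.

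**Figure D2:**
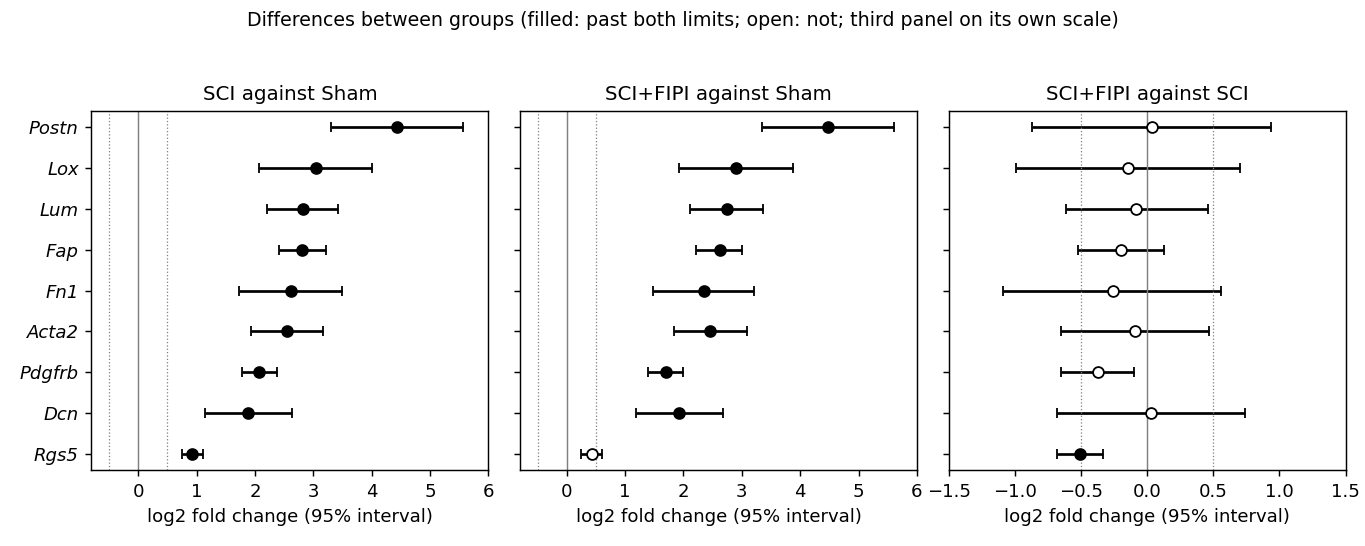
Log2 fold change of the 9 tested genes with its 95% interval in SCI against Sham, SCI+FIPI against Sham and SCI+FIPI against SCI, with filled points for genes past both limits, open points for the others and dotted lines at a log2 fold change of 0.5 in either direction. The third panel has its own scale, and the first pair shares the Sham mice while the SCI mice enter both the first and the third. All points of the first panel are filled, Rgs5 is open in the second at 0.43, and Rgs5 at -0.51 is the only filled point of the third.

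Small leucine-rich proteoglycans other than Dcn and Lum were mixed in their changes. Of 14 tested, 6 were called higher in SCI against Sham and none lower, with a median of 0.73 (6 and 0.61 without Sham mouse 1), and the largest were Bgn, biglycan, at 3.66 (SE 0.286, adjusted p = 2e-05) and Tsku, tsukushi, at 2.34 (SE 0.173, adjusted p = 1.43e-07). In SCI+FIPI against Sham 8 were called higher, and 5 without Sham mouse 1. None was called with the inhibitor against SCI, and the median was 0.03.

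The ligands of PDGFRB are PDGF-B and PDGF-D, and the 6 other PDGF ligands and receptors included both. Pdgfrl, a receptor-like gene, at 2.14 (SE 0.126, adjusted p = 2.4e-09) and Pdgfc, a ligand of PDGFRA, at 1.59 (SE 0.108, adjusted p = 8.58e-09) had the largest changes of 4 called higher in SCI against Sham. Pdgfb rose from 20.6 ± 2.36 to 43.4 ± 6.74 CPM (log2 fold change 1.08, SE 0.112, adjusted p = 1.58e-06) and Pdgfd, the only one called lower, fell from 32.4 ± 0.566 to 19.9 ± 1.28 CPM (-0.7, SE 0.0754, adjusted p = 1.01e-06), both chosen after their values were seen because they bind the receptor. The 2 ligands of PDGFRB thus moved in opposite directions after contusion. Neither was called with SCI+FIPI against SCI, where Pdgfb was at -0.11 and Pdgfd at 0.1, and none of the 6 was.

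Receptors of fibronectin and periostin were called higher in 9 of 11 tested after contusion, none was lower by the limits, and the median log2 fold change was 1.31 (8 called and 1.29 without Sham mouse 1). Itga5, the partner of integrin beta 1 in the main fibronectin receptor, rose from 11.2 ± 2.1 to 108 ± 20.4 CPM (log2 fold change 3.27, SE 0.17, adjusted p = 1.64e-07), and Itgb5, an integrin chain that pairs with alpha V, from 105 ± 11.9 to 482 ± 16.7 CPM (2.19, SE 0.081, adjusted p = 5.19e-11). In SCI+FIPI against SCI, 10 of the 11 were lower with a median of -0.22. Itga4, an integrin chain that binds fibronectin and is carried by leukocytes, was the only one called, at -0.58 (SE 0.149, adjusted p = 0.0271), from 17.2 ± 3.67 to 11.5 ± 1.04 CPM.

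**Figure D3:**
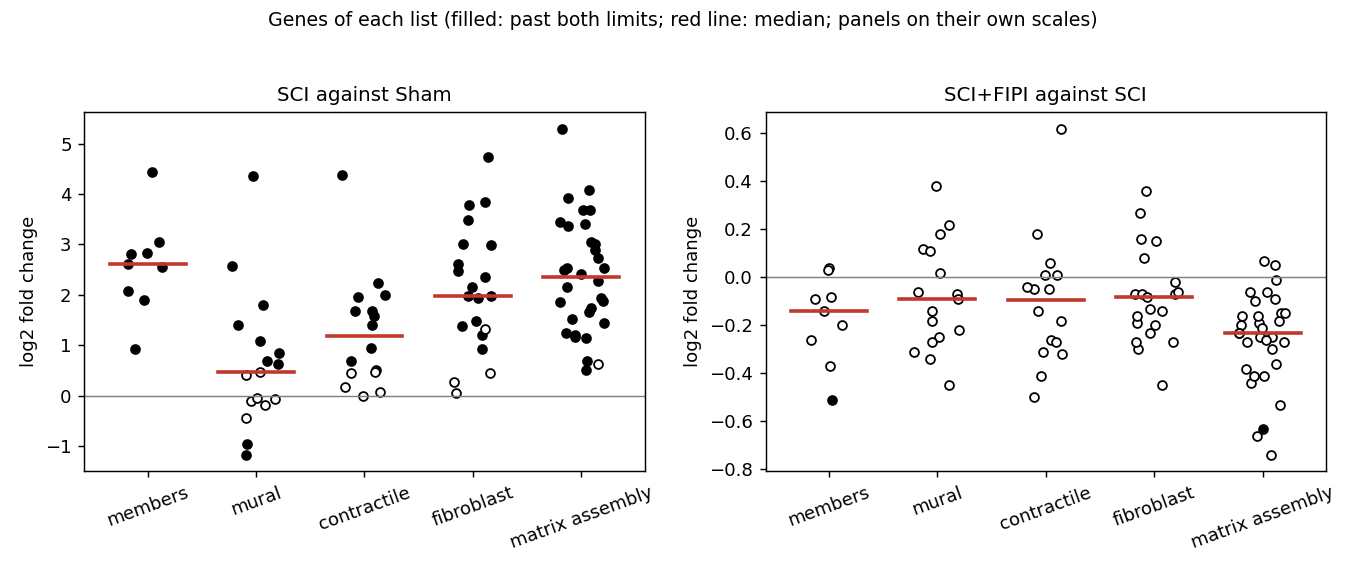
Log2 fold changes of single genes for the 9 tested genes (members) and for 17 mural, 16 contractile, 21 fibroblast and 32 matrix assembly genes, in SCI against Sham and in SCI+FIPI against SCI, with filled points past both limits, open points not, and a red line at the median. The panels have their own scales and points are spread sideways only for visibility. After contusion the mural genes spread on both sides of 0 around a median of 0.46 while the matrix genes centre on 2.35, and with the inhibitor only Rgs5 and Fbn2 are filled.

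Against Sham, 8 of the 9 genes were called higher in SCI+FIPI mice, where 38.1% of all genes tested were called changed and 21.2% called higher. The log2 fold changes were 1.7 for Pdgfrb, 2.46 for Acta2, 4.47 for Postn, 2.35 for Fn1, 1.92 for Dcn, 2.74 for Lum, 2.62 for Fap and 2.9 for Lox, with Rgs5 at 0.43 as the one under the fold limit. All SCI+FIPI mice were above all Sham mice in each of the 9, as in 33.4% of all genes tested, and the 2 groups did not overlap in 66.3%. Without Sham mouse 1 the values were 2.03 for Fn1, 1.66 for Dcn, 2.47 for Lum and 2.55 for Lox, and all 8 calls were kept. Since the Sham mice enter both comparisons, the likeness of these values to those of SCI is not separate evidence.

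Markers of other cell types moved with the same groups. The summed level of 8 endothelial markers was 283 to 305 CPM in Sham mice, 487 to 522 CPM in SCI mice and 388 to 469 CPM in SCI+FIPI mice, so that the 3 groups stood in the same order as for Rgs5 and Pdgfrb. The single markers did not all follow the sum after contusion, where 6 of the 8 were called higher. Tek was at 0.19 on the log2 scale and not called. Flt1 was lower in every SCI mouse, at -0.29 (adjusted p = 0.000829), which was under the fold limit. Both are named after their values were seen. All 8 were lower in SCI+FIPI than in SCI and none was called. Only 2 of the 8 were lower without overlap of the mice, beside 14.5% of all genes tested. Rgs5 divided by that sum was 0.53, 0.557 and 0.467 in Sham mice, 0.548, 0.63 and 0.579 in SCI mice and 0.586, 0.468 and 0.405 in SCI+FIPI mice, and the 3 groups overlapped. The same ratio for Pdgfrb was 0.108, 0.138 and 0.102 in Sham, 0.263, 0.323 and 0.281 in SCI and 0.321, 0.253 and 0.216 in SCI+FIPI, and there both injured groups were above Sham and overlapped each other. These ratios were computed after the levels were seen. Whether the lower Rgs5 goes with fewer vessels was not tested.

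The 8 macrophage and microglia markers summed to 372 to 519 CPM in Sham mice, 5800 to 7010 CPM in SCI mice and 4210 to 5450 CPM in SCI+FIPI mice. After contusion 8 of 8 were called higher, beside 24.4% of all genes tested. With the inhibitor 8 of 8 were lower without overlap, beside 14.5% of all genes tested, but none was called. Several genes of the matrix and receptor lists, and Fn1 itself, are also made by macrophages, and their part in the result was not tested. Neuron markers summed to 1820 to 2610 CPM in SCI and 3020 to 3590 CPM in SCI+FIPI, and with the inhibitor all 8 were higher without overlap, 6 of them were called and their median log2 fold change was 0.58. Of all genes tested, 15.7% were higher without overlap and 2.36% were called higher in this comparison. Astrocyte markers were at 7830 to 8220 CPM in Sham, 11900 to 13700 CPM in SCI and 12200 to 12700 CPM in SCI+FIPI, a sum led by Gfap, which had means of 4140 CPM in Sham and 9620 CPM in SCI. After contusion 3 of the 6 astrocyte markers were called higher, Slc1a2 was called lower at -0.82 on the log2 scale and 2 were not called. Oligodendrocyte markers were at 22700 to 25400 CPM and 23300 to 27600 CPM in the injured groups. Lists of markers for tissue outside the cord had counts as well. Schwann cell markers summed to 412 to 631 CPM in Sham, 535 to 676 CPM in SCI and 394 to 957 CPM in SCI+FIPI. Skeletal muscle markers summed to 9.07 to 37 CPM, 13.6 to 50.5 CPM and 24.6 to 36.7 CPM in the same order. In Sham mice Fbxo2 gave 162 to 191 CPM of the Schwann sum. Acan gave 25.9 to 33.9 CPM of the bone and cartilage sum there. Both are named after their values were seen. Whether the counts of these lists came from tissue outside the cord was not tested. Bone and cartilage markers summed to 66.6 to 72.7 CPM in Sham, 128 to 143 CPM in SCI and 76.1 to 94 CPM in SCI+FIPI. A single gene, Col10a1, named after its values were seen, carried the higher SCI sum, at 0 to 0.192 CPM in Sham, 65.9 to 80.4 CPM in SCI and 4.03 to 14.8 CPM in SCI+FIPI, and the other 8 summed to 66.5 to 72.7 CPM, 62.3 to 63.1 CPM and 61.3 to 90 CPM. In SCI+FIPI against SCI, 6 of the 9 were higher and 3 lower. Bglap was called higher at 2.28 (adjusted p = 0.0486) and Col10a1 lower at -2.77 (adjusted p = 0.0131). Ibsp was higher without overlap at 2.66, but was not called (adjusted p = 0.128). Bglap and Ibsp are also named after their values were seen. Red blood cell markers summed to 279 to 369 CPM, 96.1 to 225 CPM and 62.1 to 221 CPM. Their part in the levels of the 10 genes was not tested.

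**Figure D4:**
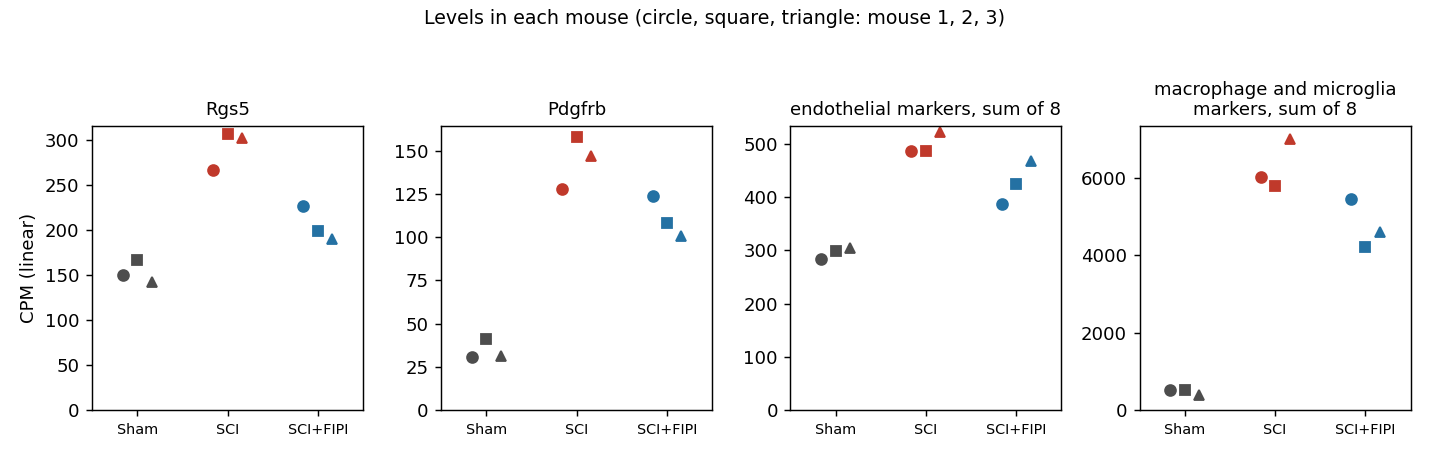
Levels of Rgs5, Pdgfrb, the sum of 8 endothelial markers and the sum of 8 macrophage and microglia markers in each mouse, in TMM-scaled CPM on linear axes that start at 0, with circles, squares and triangles for mice 1, 2 and 3. In all 4 panels the Sham mice are lowest, the SCI mice highest and the SCI+FIPI mice between, without overlap of the groups.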

How the data were processed

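RNA from a cord segment around the injury of 9 mice was enriched for polyadenylated transcripts and sequenced. The authors removed low-quality and adapter sequence and deposited raw counts per gene, without normalization. The submitters' processing notes name GRCm38 and R 4.2.3; aligner, counting program and strand setting are not given in the sources used here. Of 52550 identifiers, 52403 were matched to GENCODE M21 for symbols, positions and exonic lengths.

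The analysis used edgeR 4.0.16 under R 4.3.3, with TMM factors, filterByExpr by group, and a robust quasi-likelihood fit with 1 mean per group to all 9 mice, with Benjamini-Hochberg adjustment over 18699 genes. The limits on fold and adjusted p are those of the study, which names no test. Log2 CPM (prior count 2) was used for exact permutation tests. Totals of 20806000 to 24582377 counts make genes of a few counts imprecise. No replicate pair differed by as little as counting noise. Mice that share a number are different animals.

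The 10 genes and all lists were chosen with earlier results of these data known. Named are all 10 genes, from each related list the 2 called genes with the largest change in SCI against Sham and a mean of at least 1 CPM, and every called gene in SCI+FIPI against SCI. Cell type marker lists are given as sums. Alternatives were RLE and upper-quartile factors, other filters on low counts, the replicate number as a block, DESeq2 1.42.0, limma-voom (limma 3.58.1), a fit to the compared mice only, no fold limit, and each mouse left out in turn. Steps were tested on simulated data. Figures were drawn with matplotlib 3.10.9.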

Additional observations from a re-analysis of the deposited data

How the results depend on the processing

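The 9 calls in SCI against Sham and the 8 calls in SCI+FIPI against Sham held under all alternatives that kept the fold limit, and without it Rgs5 joined the latter to give 9. In SCI+FIPI against SCI, the count of 1 became 0 with upper-quartile factors (Rgs5 at -0.48) and with a minimum of 10 counts in every mouse (-0.50), and lay between 0 and 1 when a mouse was left out. All these changes concern Rgs5 at the fold limit of 0.5. Pdgfrb passed an adjusted p of 0.05 with DESeq2 (0.0169), with edgeR on the compared mice only (0.0368) and without a filter (3.02e-06), but never the fold limit. Differences that were not called changed sign in SCI+FIPI against SCI when one mouse was left out: without SCI mouse 2, Acta2 was at 0.21, Dcn at -0.07, Lox at 0.04 and Lum at 0. Dcn was at -0.14 without SCI+FIPI mouse 3, and Postn at -0.11 without SCI mouse 1, -0.04 without SCI mouse 3 and -0.24 without SCI+FIPI mouse 2. The ranges with 1 mouse left out were -0.24 to 0.21 for Acta2, -0.14 to 0.15 for Dcn, -0.3 to 0.04 for Lox, -0.19 to 0 for Lum and -0.24 to 0.3 for Postn. Over all genes, 572 were called in SCI+FIPI against SCI, between 189 (without SCI+FIPI mouse 2) and 1038 (without SCI mouse 1) with a mouse left out, with 341 without SCI mouse 2 and 240 without SCI mouse 3, and 1800 without the fold limit. In SCI+FIPI against Sham 7128 were called, and 11060 without the fold limit. The cause of these changes in count with single mice was not tested. With the replicate number as a block, 9, 1 and 8 of the genes were called in SCI against Sham, SCI+FIPI against SCI and SCI+FIPI against Sham, and 8744, 555 and 7115 of all genes. Deviations of mice that share a number correlated between -0.0726 and 0.108 over all genes, so the numbers were not taken as pairs. Tagln had 1 to 11 counts per mouse, whether reads were lost to the overlapping genes was not tested, and without the filter its log2 fold change in SCI against Sham was 1.2 (SE 0.742, adjusted p = 0.222).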

Other observations

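Paralogs of the 10 genes gave a reading of families that the report did not describe. Of 7 tested regulators of G protein signalling of the R4 family other than Rgs5, 4 were called higher and 2 lower in SCI against Sham. Beside these families, 24.4% of all genes tested were called higher and 22.5% lower in that comparison. Rgs1, found mainly in lymphocytes and activated myeloid cells, had a log2 fold change of 4.7 (SE 0.696, adjusted p = 0.000807), and Rgs18, of platelets and myeloid cells, of 2.83 (SE 0.307, adjusted p = 1.17e-06). None of the 7 was called with SCI+FIPI against SCI. Of the dipeptidyl peptidase 4 family other than Fap, none of 6 was called higher after contusion and 2 were called lower, beside 22.5% of all genes tested called lower. With 6 genes, these counts do not set the family apart from that share. Dpp10 and Dpp6, neuronal subunits of potassium channels without peptidase activity, were at -2.01 (SE 0.0965, adjusted p = 3.72e-10) and -1.4 (SE 0.0954, adjusted p = 3.5e-08). Dpp10 was also called with SCI+FIPI, higher than in SCI by 0.73 on the log2 scale (SE 0.0979, adjusted p = 0.0017), from 14.6 ± 2.39 to 24.3 ± 1.2 CPM (SD, n = 3). Of 7 actins and transgelins other than Acta2 and Tagln, 4 were called higher after contusion, and beside Actg2 the largest was Tagln2, the transgelin of leukocytes and many other cells, at 2.43 (SE 0.142, adjusted p = 2.12e-07). None of these 7 was called with SCI+FIPI against SCI.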
